A study of Mus musculus with 18 samples.

Results

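The genes described here are 8 markers of hippocampal pyramidal cells, of 22063 genes measured in the series. They were chosen by name: Fibcd1, Wfs1, Pou3f1 and Mpped1 mark the CA1 field, and Nectin3, Bok, Iyd and Cpne4 mark the CA3 field. RNA was sequenced from 18 mouse hippocampus samples in 4 groups. The mice of the S-V group (n = 5) were rotated in a single direction with their vision blocked, those of the D+V group (n = 5) were rotated in both directions with their vision free, and those of the D-V group (n = 5) were rotated in both directions with their vision blocked, the condition that the labels call the Coriolis illusion. The Control group (n = 3) is labelled a blank control, and the labels do not say whether those mice were restrained, moved or blindfolded. Tissue was taken immediately after rotation. Neither strain, sex, age nor the duration of rotation is given in the sources used here. Nothing in the labels says that the samples come from different animals, so a p-value here speaks only of sample-to-sample spread.

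In the hippocampal circuit, granule cells of the dentate gyrus send mossy fibres to CA3 pyramidal cells, and CA3 cells send the Schaffer collaterals to CA1 pyramidal cells. Both pyramidal cell types are glutamatergic, and each expresses a partly distinct set of genes by which its field can be recognised in sections. The hippocampus receives signals of head rotation from the vestibular organs through relays in the brainstem and thalamus, and its pyramidal cells include the place cells that code an animal's position.

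All 8 markers had reads in every library and passed the filter on low counts. Library totals lay between 15031084 and 25313119 counts, and the count of the scarcest marker, Iyd, lay between 37 and 157 per library. The 6 genes shared by both pyramidal cell types summed to between 5838 and 7751 CPM (counts scaled to a common effective library size) per library. The 9 dentate granule cell markers summed to between 456 and 740 CPM, and their presence matches the tissue label. Markers of the neocortex summed to between 95.1 and 122 CPM and those of the striatum to between 137 and 253 CPM. Sums of different genes do not measure shares of tissue. Markers of the choroid plexus, a neighbouring tissue, ranged from 65.7 to 10750 CPM in sum and exceeded 2000 CPM in 5 libraries (S-V 2 and 4, D+V 2, D-V 3 and 4). Markers of the thalamus and habenula summed to between 87.4 and 109 CPM in S-V, 61.5 and 159 CPM in D+V, 54.3 and 144 CPM in D-V and 97.7 and 211 CPM in Control libraries, with Gbx2 of that list at 0 in 3 libraries.

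Of the 8 markers, 1 was called against Control (edgeR adjusted p under 0.05), in 1 of the 3 rotated groups. Nectin3, the gene of a cell adhesion molecule found at mossy fibre contacts on CA3 dendrites, rose 1.38-fold in D+V hippocampus, where 0.908% of all genes tested were called. That call was lost under 12 of the 21 alternative settings tried. Nectin3 was 1.28-fold of Control in D-V and 1.15-fold in S-V, neither of them called. None of the other 7 was called in any comparison. In this bulk tissue, fewer cells of a type and less RNA per cell cannot be told apart.

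Levels of different genes were compared as CPM per kilobase of the longest annotated transcript, averaged over all 18 libraries. On that scale Mpped1 (63.7), which encodes a metallophosphoesterase domain protein, and Bok (57.5), a member of the Bcl-2 family of cell death regulators, were the highest. Fibcd1 (38.2), a membrane receptor that binds acetylated groups such as those of chitin, Wfs1 (36.0) and Cpne4 (29.8) followed, then Pou3f1 (14.5). Nectin3 (3.92) and Iyd (2.96) were the lowest. Neighbours in this order overlapped over the libraries, except that Pou3f1 stood apart from Cpne4 above it and from Nectin3 below it. The longest annotated Nectin3 transcript has 9116 bases, so its place depends on which transcripts the cells use.

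**Figure D1:**
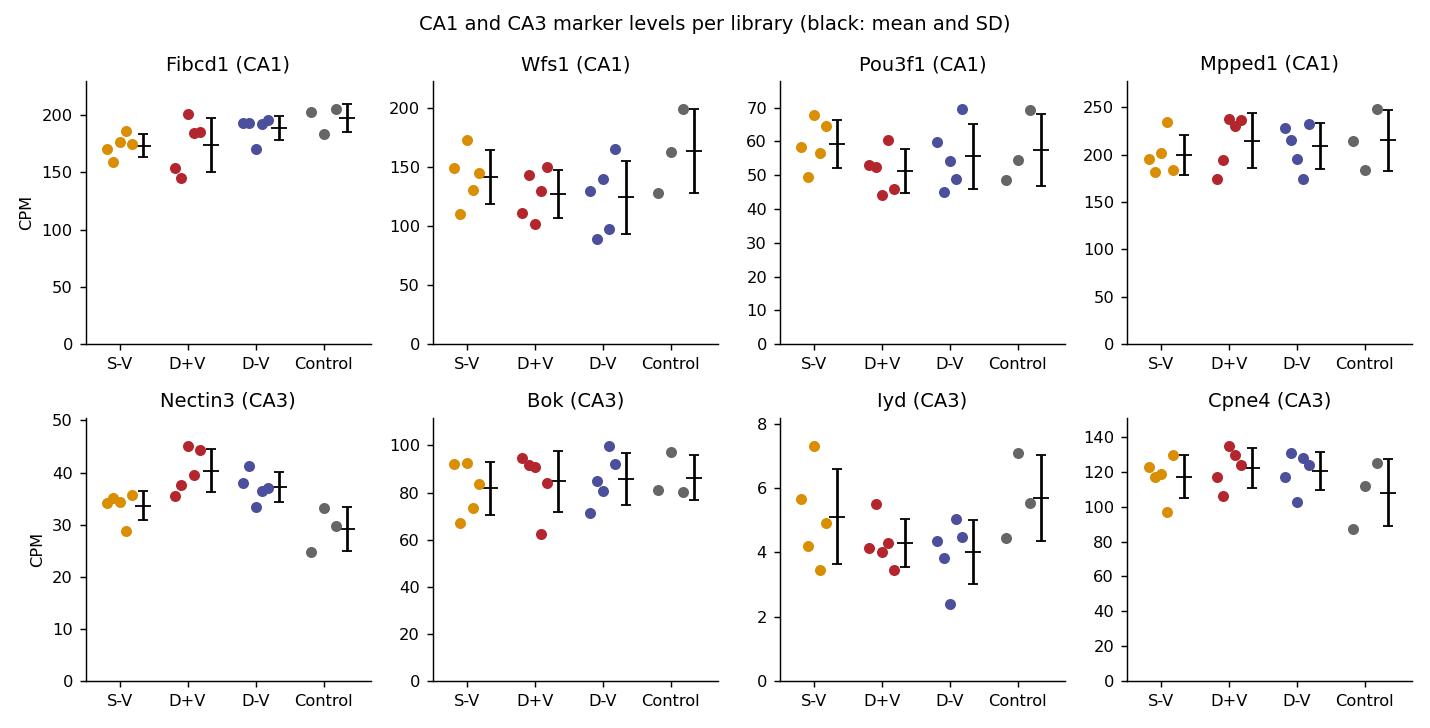
CPM (linear axis from 0) of each marker in every library of the S-V, D+V, D-V and Control groups, with points in order of replicate number and the black bar at the group mean ± SD. The 5 D+V values of Nectin3 lie between 35.4 and 45.1, all above the 3 Control values of 24.7 to 33.2, while the other 7 markers overlap between D+V and Control.

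Among the CA1 markers, Fibcd1 had 170, 159, 176, 186 and 175 CPM in the S-V libraries 1 to 5, 154, 145, 201, 184 and 185 CPM in the D+V libraries, 193, 193, 170, 192 and 196 CPM in the D-V libraries, and 203, 183 and 205 CPM in the 3 Control libraries. As many as 4 of the 5 S-V libraries, 2 of the 5 D+V libraries and 1 D-V library lay below every Control library. The log2 fold changes were -0.19 for S-V, -0.18 for D+V and -0.06 for D-V against Control (SE 0.09 each), with edgeR adjusted p-values of 0.364, 0.296 and 0.935.

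Wfs1 encodes wolframin, a membrane protein of the endoplasmic reticulum that takes part in calcium handling. It had 149, 110, 173, 131 and 145 CPM in S-V, 111, 143, 102, 130 and 150 CPM in D+V, 130, 89.2, 140, 97.3 and 165 CPM in D-V, and 128, 163 and 199 CPM in Control. Values spread widely inside each group, and all 3 rotated groups overlapped the Control range. The log2 fold changes were -0.21 for S-V, -0.36 for D+V and -0.39 for D-V (SE 0.18 each), with edgeR adjusted p-values of 0.654, 0.316 and 0.794. The approximate 95% interval of the D-V difference ran from -0.76 to -0.03 before adjustment over all genes.

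Pou3f1, a POU-domain transcription factor also called SCIP, had 58.4, 49.4, 67.7, 56.6 and 64.4 CPM in S-V, 52.9, 52.4, 44.2, 60.5 and 46.0 CPM in D+V, 59.9, 45.1, 54.3, 48.8 and 69.5 CPM in D-V, and 48.7, 54.4 and 69.3 CPM in Control. Every rotated group overlapped the Control range, and the log2 fold changes were 0.05, -0.16 and -0.05 (SE 0.14 each) for S-V, D+V and D-V. Pou3f1 is a single-exon gene that shares 330 exon bases with the opposite-strand gene Gm2164. Without a stated strand setting, any reads from both could not be told apart. Gm2164 is not among the 22063 genes measured, so its level is not known here.

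Mpped1 had 195, 182, 202, 235 and 184 CPM in S-V, 174, 194, 238, 230 and 237 CPM in D+V, 228, 216, 196, 174 and 232 CPM in D-V, and 214, 184 and 248 CPM in Control. Its group means differed by less than the spread within groups. The interval of its D+V difference, from -0.24 to 0.23 on the log2 scale, was among the 3 groups the one centred closest to 0.

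Among the CA3 markers, Nectin3 had 34.1, 35.1, 34.3, 28.8 and 35.7 CPM in S-V, 35.4, 37.6, 45.1, 39.5 and 44.3 CPM in D+V, 38.0, 41.2, 33.3, 36.5 and 37.1 CPM in D-V, and 24.7, 33.2 and 29.7 CPM in Control. The D+V and D-V libraries all lay above the Control libraries, the lowest D-V value being 33.3 CPM and the highest Control value 33.2 CPM, and 4 of 5 S-V libraries did. Means were 33.6 ± 2.76 CPM in S-V, 40.4 ± 4.22 in D+V, 37.2 ± 2.84 in D-V (SD, n = 5 each) and 29.2 ± 4.24 in Control (SD, n = 3).

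In D+V against Control, the Nectin3 difference was 0.46 on the log2 scale (SE 0.10), with an edgeR quasi-likelihood adjusted p of 0.0412 over 14763 genes. It was the only one of the 8 markers called there, beside 0.908% of all genes tested, 0.732% upward. In D-V against Control the difference was 0.35 (SE 0.10, adjusted p = 0.667), and in S-V against Control it was 0.20 (SE 0.10, adjusted p = 0.392). No marker was called in either, beside 0% of all genes in both. Before adjustment, edgeR put 1 marker in S-V (Fibcd1), 1 in D+V (Nectin3) and 2 in D-V (Wfs1 and Nectin3) under a threshold of 0.05, beside 13.7%, 17.9% and 6.2% of all genes. Neither DESeq2 nor limma voom called a marker in S-V or D-V. Groups that did not overlap were seen for 7.63% of all genes in D+V, 5.12% in D-V and 12.4% in S-V against Control. The 3 comparisons share the same 3 Control libraries.

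The Nectin3 call was lost when certain single libraries were left out, while the difference stayed between 0.36 and 0.57. Without Control 1, the lowest library for this gene, the D+V difference was 0.36 with an adjusted p of 0.215, and the call was also lost without Control 2 (0.57, adjusted p = 0.0898), D+V 3 (0.42, 0.0888), D+V 4 (0.47, 0.0554) or D+V 5 (0.43, 0.0872). With the thalamus and habenula score as a covariate the difference was 0.36 with an adjusted p of 0.186, and with the choroid plexus score it was 0.47 with an adjusted p of 0.0278. Without the 5 libraries rich in choroid plexus markers it was 0.49 with an adjusted p of 0.0757. The calls over all genes in D+V moved with these settings. Against 134 genes with all libraries, 0 were called without Control 1, 0 without Control 2, 23 without D+V 3, 44 without D+V 4 and 24 without D+V 5, and 375, 1288 and 117 without Control 3, D+V 1 and D+V 2. The thalamus and habenula score left 0 genes called, the choroid plexus score 351, and the 13 libraries low in choroid plexus markers 1. With the thalamus and habenula score, the Nectin3 difference was also smaller for S-V (0.145) and for D-V (0.185), and it was 0.04 when D-V was set against S-V, none of them called.

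Cpne4, a copine that binds phospholipids in the presence of calcium, had 123, 117, 119, 97.1 and 130 CPM in S-V, 117, 106, 135, 130 and 124 CPM in D+V, 117, 131, 103, 128 and 124 CPM in D-V, and 87.5, 112 and 125 CPM in Control. Library Control 1 was again the lowest, and the groups overlapped. The log2 fold changes of 0.12, 0.18 and 0.16 (SE 0.11 each) for S-V, D+V and D-V had edgeR adjusted p-values of 0.679, 0.42 and 0.853.

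Iyd encodes iodotyrosine deiodinase, which recovers iodide from iodotyrosines in the thyroid. Its values were 5.65, 4.20, 7.31, 3.46 and 4.91 CPM in S-V, 4.14, 5.50, 4.0, 4.30 and 3.46 CPM in D+V, 4.34, 3.83, 2.40, 5.05 and 4.47 CPM in D-V, and 4.45, 7.09 and 5.54 CPM in Control. In all, 4 of 5 D+V libraries and 3 of 5 D-V libraries lay below every Control library, yet the ranges overlapped. The log2 fold changes were -0.15, -0.41 and -0.50 (SE 0.24 each) for S-V, D+V and D-V, with edgeR adjusted p-values of 0.821, 0.385 and 0.803. At these counts, sampling of reads alone gave a coefficient of variation of 10.5%, against 24.1% measured within groups.

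Bok had 92.1, 67.0, 92.7, 73.3 and 83.6 CPM in S-V, 94.6, 91.9, 90.7, 62.3 and 84.2 CPM in D+V, 71.2, 85.0, 80.7, 99.8 and 92.0 CPM in D-V, and 81.1, 97.3 and 80.4 CPM in Control. Its group means, 81.7, 84.8 and 85.7 CPM in S-V, D+V and D-V and 86.3 CPM in Control, lay within 1 SD of each other. The approximate 95% interval of its difference from Control ran from -0.34 to 0.19 for S-V, from -0.29 to 0.24 for D+V and from -0.27 to 0.25 for D-V.

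**Figure D2:**
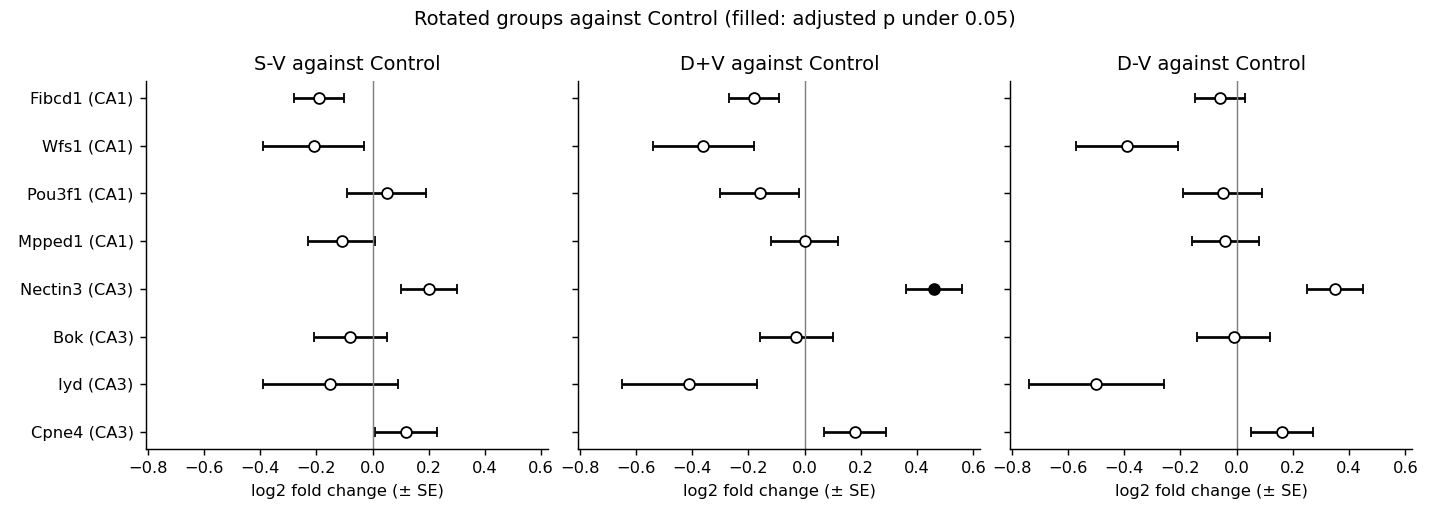
Log2 fold change (x axis, ± SE) of each marker in S-V, D+V and D-V against Control from the edgeR fit of all 18 libraries, with filled points for an adjusted p under 0.05. Nectin3 in D+V, at 0.46, is the only filled point, and the 4 CA1 markers lie between -0.39 and 0.05 over the 3 panels.

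Set side by side, the median log2 fold change of the 4 CA1 markers was -0.15 for S-V, -0.17 for D+V and -0.06 for D-V against Control, and that of the 4 CA3 markers was 0.02, 0.08 and 0.07. The medians of all genes tested lay at 0.00. The summed CA1 markers lay between 500 and 619 CPM in S-V, 491 and 619 CPM in D+V, 512 and 662 CPM in D-V and 584 and 721 CPM in Control, and the summed CA3 markers between 203 and 255 CPM, 236 and 274 CPM, 220 and 269 CPM and 198 and 250 CPM in the same groups. Per library, the log2 ratio of the CA1 sum to the CA3 sum averaged 1.27 ± 0.184 in S-V, 1.17 ± 0.151 in D+V, 1.22 ± 0.214 in D-V (SD, n = 5 each) and 1.47 ± 0.207 in Control (SD, n = 3). The ranges of this ratio overlapped, with 1.16 to 1.59 in S-V, 0.97 to 1.36 in D+V, 0.93 to 1.40 in D-V and 1.23 to 1.59 in Control. Each sum weights its genes by their level. The CA3 sum was made up mostly of Cpne4 and Bok (means of 118 and 84.4 CPM), with less from Nectin3 and Iyd (35.8 and 4.67 CPM). The trends with GC content described below were left in these sums.

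With the 15 rotated libraries as 1 group against the 3 Control libraries, no marker was called, beside 0% of all genes. Nectin3 was the only marker at an unadjusted p under 0.05, with a log2 fold change of 0.34 (SE 0.09, edgeR adjusted p = 0.138) and 14 of 15 rotated libraries above every Control library. DESeq2 gave this gene an adjusted p of 0.0232, with 2.95% of the genes it tested called, and limma voom with quality weights 0.0481, with 2.64% called. Wfs1 stood at -0.32 (SE 0.16) and Iyd at -0.35 (SE 0.20), with adjusted p-values of 0.392 and 0.467, and 5 and 9 of the 15 rotated libraries lay below every Control library.

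Between the rotated groups, D-V against S-V sets rotation in both directions against rotation in 1 direction with vision blocked in both, and D-V against D+V sets blocked against free vision during rotation in both directions. By edgeR, DESeq2 and limma voom no marker was called in either, beside 0% of all genes by edgeR in both, and no marker had an unadjusted edgeR p under 0.05. In D-V against S-V the log2 fold changes lay between -0.34 for Iyd (SE 0.21) and 0.15 for Nectin3 (SE 0.09). In D-V against D+V they lay between -0.11 for Nectin3 (SE 0.09, interval -0.29 to 0.06) and 0.12 for Fibcd1 (SE 0.08). Over the whole table, unadjusted p-values under 0.05 were found for 13.7% of genes for S-V, 6.2% for D-V and 13.1% for all rotated groups against Control, where DESeq2 called 207, 3 and 250 genes and limma voom 349, 0 and 390. Such p-values were found for 6.44% of genes when D-V was set against S-V, with 11 genes called by DESeq2 and 0 by limma voom, and for 13.7% when it was set against D+V, with 275 and 831 called. For D+V against Control they were found for 17.9%, with 760 genes (7.18% of those it tested) called by DESeq2 and 1903 (12.9%) by limma voom.

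The 8 markers also differed in how much they varied among libraries of 1 group. Over the 4 groups, the within-group coefficient of variation was 20.2% for Wfs1, 15.4% for Pou3f1, 13.4% for Bok, 12.8% for Mpped1, 12.1% for Cpne4, 10.6% for Nectin3 and 8.48% for Fibcd1. The median over 7000 genes with mean levels of 20 to 250 CPM was 8.82%, and 97.2% of those genes varied less than Wfs1 and 91.9% less than Pou3f1. Counting error made up at most 3.82% for these 7 markers. From the lowest to the highest library, Wfs1 spanned 2.22-fold (D-V 2 to Control 3) and Fibcd1 1.42-fold.

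Among the 28 pairs of markers, 12 of them within a field, 3 passed the test of following each other across the 18 libraries. Each of these 3 pairs came from 1 field. Wfs1 and Pou3f1 had a Pearson r of 0.75 in log2 CPM (permutation p = 0.00042, 0.00588 after adjustment over 28 pairs; Spearman rho 0.70, permutation p = 0.00168). Nectin3 and Cpne4 had an r of 0.75 (permutation p = 0.00024, adjusted 0.00588; rho 0.67, permutation p = 0.00322), and Fibcd1 and Mpped1 an r of 0.64 (permutation p = 0.00387, adjusted 0.0361; rho 0.68, permutation p = 0.00239). The adjusted p of each rho was 0.0301. The tests were two-sided, with 100000 permutations, and were added after seeing the data. They ask only whether a pair is correlated at all. The share of ordinary gene pairs that would pass is not given here, so 3 of 28 cannot be set against it. The log2 CPM values still held the trends with GC content and transcript length described below. Nectin3 and Cpne4 both lie below the median GC content of 49.9% (45.7% and 46.5%). The genes of the other pairs that passed all lie above it (53.7% to 63.9%). The part of GC content in these correlations was not tested.

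The 3 highest libraries for Wfs1, S-V 3, D-V 5 and Control 3, were also the 3 highest for Pou3f1, and Control 1 and S-V 4 were the 2 lowest for both Nectin3 and Cpne4. Without the 2 libraries farthest from the median of the gene named first, the r values were 0.64, 0.52 and 0.62 for Wfs1 with Pou3f1, Nectin3 with Cpne4 and Fibcd1 with Mpped1. With group means removed they were 0.79, 0.79 and 0.73, and over the 13 libraries with choroid plexus markers at most 2000 CPM they were 0.74, 0.79 and 0.80.

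The other pairs were weaker. Over the 12 pairs within a field the median r was 0.16 and 11 were positive, and over the 16 pairs across fields it was -0.06, with 7 positive and a range of -0.38 to 0.40. Fibcd1 and Wfs1 had an r of 0.03, and Nectin3 and Iyd an r of -0.15. With group means removed these were -0.07 and 0.38, and all 6 CA3 pairs were then positive (0.13 to 0.79), as were 4 of the 6 CA1 pairs. Among 12460 genes, Pou3f1 ranked 19 in likeness to Wfs1, Cpne4 ranked 120 in likeness to Nectin3 and Mpped1 ranked 281 in likeness to Fibcd1. In the other direction, Wfs1 ranked 47 for Pou3f1, Nectin3 54 for Cpne4 and Fibcd1 499 for Mpped1. Many genes outside the markers thus followed each of them as closely or more closely. The share at least as close as the partner was 2.3% for Fibcd1, 4.11% for Mpped1 and at most 1.02% for the others.

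**Figure D3:**
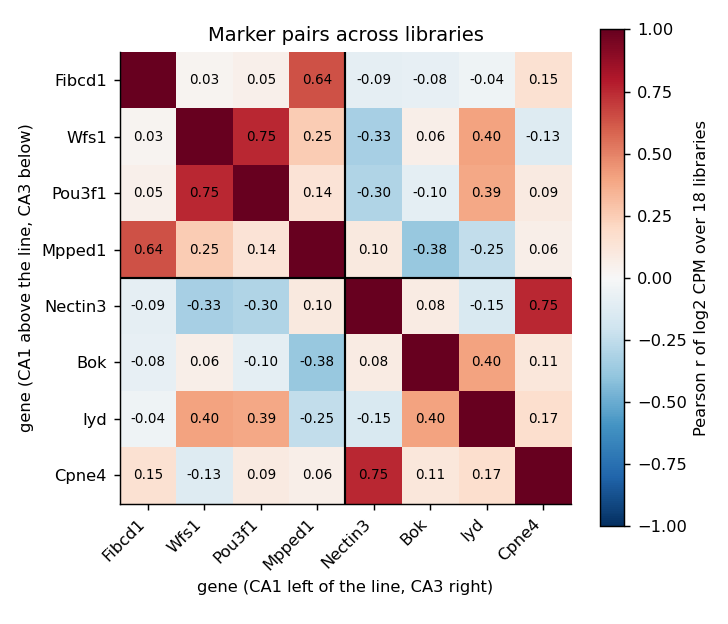
Pearson r of log2 CPM over the 18 libraries for all 28 pairs of the 8 markers, with black lines between the CA1 and the CA3 genes and the diagonal left without a number. The 3 darkest cells off the diagonal are Wfs1 with Pou3f1 (0.75), Nectin3 with Cpne4 (0.75) and Fibcd1 with Mpped1 (0.64).

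**Figure D4:**
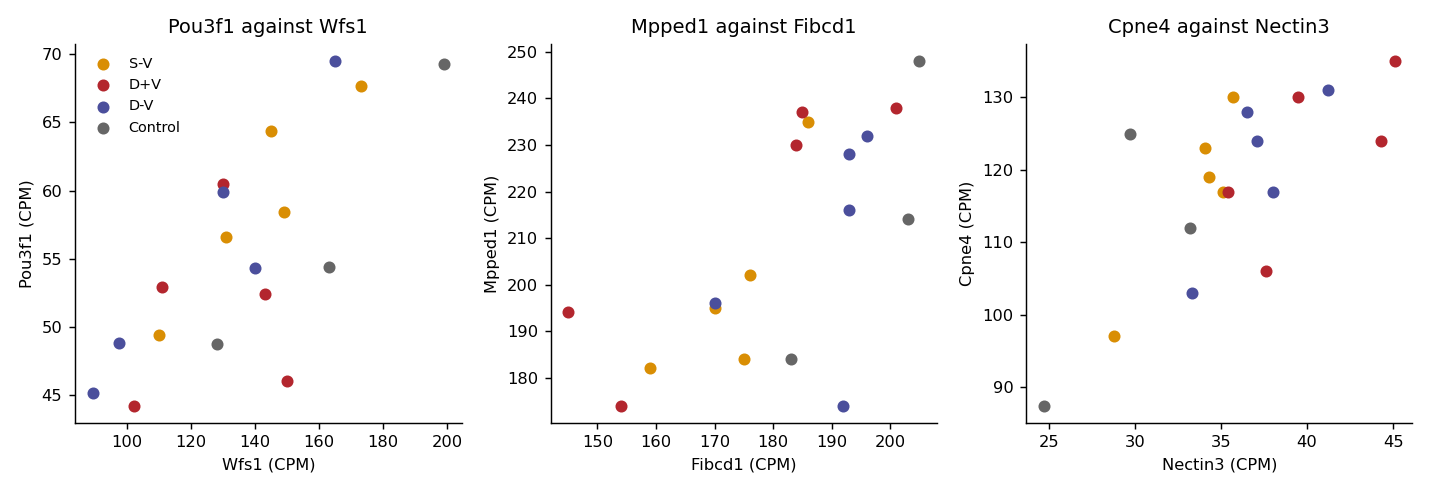
CPM of the 3 closest marker pairs in each of the 18 libraries, coloured by group, on linear axes that do not start at 0. In the panel of Cpne4 against Nectin3, Control 1 (24.7 and 87.5 CPM) and S-V 4 (28.8 and 97.1 CPM) form the lower left end.

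Likeness to each marker was read as the Pearson r over the 18 libraries, among genes whose mean log2 CPM reached 1. The closest genes were Hunk (0.91), Nup93 (0.84) and Srl (0.83) for Wfs1, and Fam84a (0.87), Wipf3 (0.86) and Egr1 (0.85) for Pou3f1. For Fibcd1 they were Clstn1, Noc4l and Rasal1 (0.87 each), and for Mpped1 they were Ptprn2 (0.88), Foxp1 (0.86) and Mtx3 (0.85). For Nectin3 they were St18 (0.91), Atp6v1a (0.90) and Pafah1b1 (0.90), and for Cpne4 Cplx2 (0.91), Ogfrl1 (0.89) and Pcdh20 (0.89). Bok was closest to Rab1b (0.88), Ccdc85b (0.83) and Fkbp8 (0.83), and Iyd to Sypl2 (0.80), BC025920 (0.80) and Rph3a (0.78). No marker was among the 3 closest genes of another, and these values are descriptions chosen as the highest of 12460. The closest genes of Nectin3 (45.7% GC) had 40.5% to 44.6% GC, and those of Fibcd1 (59.4%) and Bok (61.0%) had 54.8% to 63.0%. Those of Mpped1 (53.7%) had 42.3% to 48.0%. For Wfs1, Pou3f1, Iyd and Cpne4 they lay on both sides of the median over genes of 49.9%. The part of GC content in this likeness was not tested.

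The stretch before a RefSeq transcript start is shown for the members of 2 pairs that followed each other, taken from the RefSeq promoter windows of GRCm38.p6. RefSeq windows were found for 7 of the 8 markers, 9 windows in all, and 5 windows hold no annotated exon base in GENCODE M21. From those 5, the 250 bases before the start are printed 5′ to 3′ on the gene's own strand for Nectin3 and Cpne4, which include the called gene and its companion, and for Fibcd1 and Mpped1. The Fibcd1 stretch adjoins the outermost start of the gene in GENCODE M21. Those of Nectin3, Cpne4 and Mpped1 lie inside the annotated gene, downstream of its outermost start. Capitals mark the E-box CANNTG, the site read by basic helix-loop-helix factors, and TGACG, read as such or as CGTCA on the other strand, which is the half-site of the cAMP response element.
Nectin3 (chr16:46496968-46497217, minus strand): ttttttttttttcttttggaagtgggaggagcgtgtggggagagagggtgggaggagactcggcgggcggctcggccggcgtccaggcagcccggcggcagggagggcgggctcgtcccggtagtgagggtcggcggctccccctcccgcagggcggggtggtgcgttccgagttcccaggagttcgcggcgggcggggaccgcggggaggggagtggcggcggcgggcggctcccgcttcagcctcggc
Cpne4 (chr9:104587808-104588057, plus strand): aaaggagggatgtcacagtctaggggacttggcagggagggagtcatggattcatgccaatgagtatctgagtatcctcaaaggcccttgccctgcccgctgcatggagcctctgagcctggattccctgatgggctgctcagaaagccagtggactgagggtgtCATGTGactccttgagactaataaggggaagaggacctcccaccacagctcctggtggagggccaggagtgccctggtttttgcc
Fibcd1 (chr2:31846006-31846255, minus strand): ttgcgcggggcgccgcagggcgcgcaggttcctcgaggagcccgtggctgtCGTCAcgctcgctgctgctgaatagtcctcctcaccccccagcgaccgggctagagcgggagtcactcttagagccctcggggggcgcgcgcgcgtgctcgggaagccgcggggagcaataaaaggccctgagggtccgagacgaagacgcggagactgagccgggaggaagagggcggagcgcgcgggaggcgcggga
Mpped1 (chr15:83784579-83784828, plus strand): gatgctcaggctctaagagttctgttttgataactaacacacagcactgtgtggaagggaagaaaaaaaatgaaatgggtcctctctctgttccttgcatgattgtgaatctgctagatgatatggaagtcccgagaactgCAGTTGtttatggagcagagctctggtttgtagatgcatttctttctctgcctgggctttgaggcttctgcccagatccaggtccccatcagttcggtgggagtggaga

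The Nectin3 and Fibcd1 stretches are rich in G and C (73.2% and 71.6%), whereas those of Cpne4 (56.8%) and Mpped1 (46.8%) lie nearer the median of 52.4% over 32851 windows. An E-box lies in the Cpne4 stretch and in the Mpped1 stretch, and none in those of Nectin3 and Fibcd1, while 66.22% of all windows hold one. These values depend on the window chosen. The other Mpped1 window, not printed because it holds 41 annotated exon bases, has 88.8% GC and no E-box. The other Cpne4 window, also not printed, has 59.6% GC and an E-box. Among the printed stretches the half-site TGACG occurs once, in Fibcd1, and it is found in 17.77% of all windows. The whole element TGACGTCA (1.55% of windows), the POU octamer ATGCAAAT (1.6%) and the Egr site GCGTGGGCG (0.54%) were searched on both strands and are in none of the 9 windows. The half-site overlaps the whole element by its letters.

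Fold changes against Control varied with base composition in all 3 rotated groups, most strongly in D+V, the comparison that called Nectin3. For S-V and D-V, where no gene was called, the Spearman rho with GC content was -0.43 and -0.243. Over 14743 genes, none of them an independent replicate of another, the D+V against Control log2 fold change had a Spearman rho of -0.521 with the GC content of the longest transcript and 0.331 with its length. Genes under the lower GC quartile (45%) had a median log2 fold change of 0.18 and those above the upper quartile (54.7%) one of -0.12. Nectin3, with 45.7% GC and the longest transcript of the 8, Iyd (45.7%) and Cpne4 (46.5%) are GC-poor, and Mpped1 (53.7%), Wfs1 (57.8%), Fibcd1 (59.4%), Bok (61.0%) and Pou3f1 (63.9%) are GC-rich, against a median of 49.9% over genes. The 4 CA1 markers are thus all above the median and 3 of the 4 CA3 markers below it.

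When the trends of log2 CPM with GC content and transcript length were taken out of every library before a limma fit, the Nectin3 difference in D+V was 0.27 (SE 0.11, limma adjusted p = 0.581), against 0.47 (SE 0.10, adjusted p = 0.0389) in the same kind of fit with the trends left in. In S-V it was 0.17 against 0.21, and in D-V 0.33 against 0.36. For Wfs1 the D+V difference was -0.22 against -0.35, for Fibcd1 -0.08 against -0.19 and for Bok 0.15 against -0.04, while Iyd stayed at -0.42 against -0.39. For genes under the lower GC quartile the median log2 fold change was 0.13 in S-V and 0.075 in D-V against Control.

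**Figure D5:**
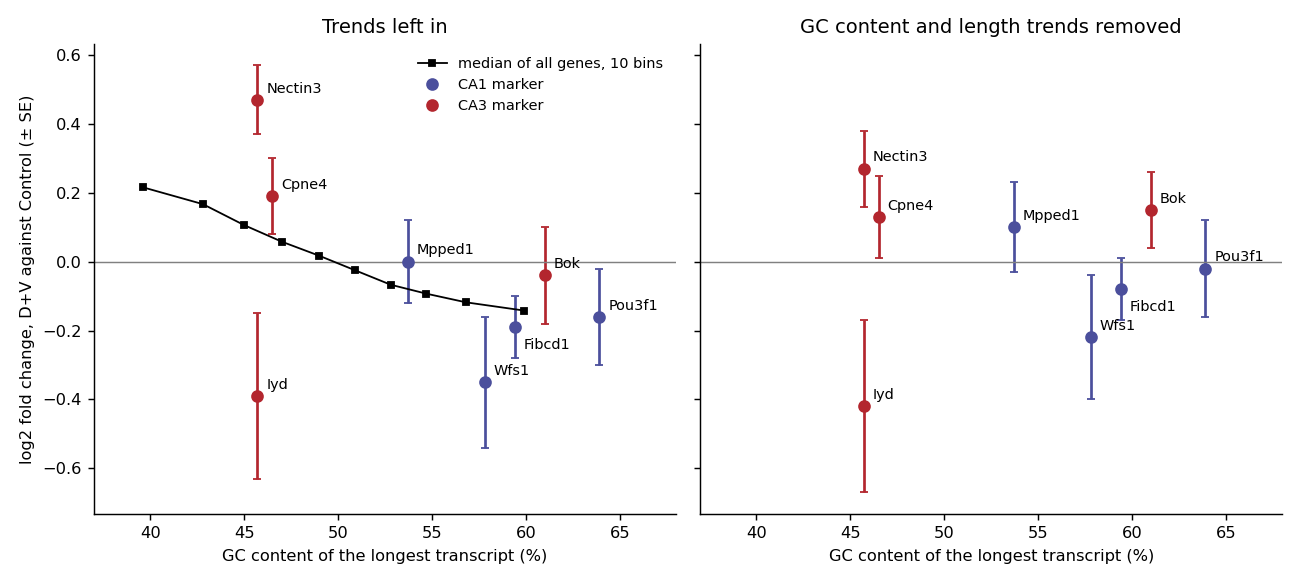
Difference between D+V and Control (log2 scale, ± SE, limma fits of log2 CPM) of the 8 markers by the GC content of their longest transcript, with the trends left in (left) and removed (right), CA1 markers in blue and CA3 markers in red. The black line joins the medians of all genes from the edgeR fit in 10 bins of equal size and runs downward from left to right, and Nectin3 lies at 0.47 in the left panel and at 0.27 in the right one.

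Other genes that mark the same fields were read beside the 8, from lists drawn up with earlier results of these data known. Of 6 other CA1 markers, none was called in any comparison, and their median log2 fold changes were 0.12, 0.18 and 0.08 in S-V, D+V and D-V against Control, with the opposite sign to the 4 CA1 markers above. Spink8 stood at -0.23 (SE 0.13) and Ndst4 at 0.31 (SE 0.21) in D+V. Of 7 other CA3 markers, 1 rose in D+V and none was called in S-V or D-V. That gene was Elavl2, an RNA-binding protein of neurons, with 79.0 CPM in D+V and 47.7 CPM in Control (log2 fold change 0.73, SE 0.10, edgeR adjusted p = 0.0131), beside 0.908% of all genes called. Elavl2 stood at 0.41 in S-V (SE 0.10, edgeR adjusted p = 0.152) and 0.46 in D-V (SE 0.10, edgeR adjusted p = 0.595) against Control. In D-V against D+V it stood at -0.26 (SE 0.09, edgeR adjusted p = 0.194). In D+V against Control it was called under 15 of 21 alternatives. It was not called with only the groups compared, with GC content and length trends removed, with the thalamus and habenula score, or without Control 1 or 2. Under those settings no gene at all was called. Coch of the same list stood at 0.26 (SE 0.39).

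In the neighbouring cell types none of 7 CA2 markers, 9 dentate granule cell markers or 6 genes shared by pyramidal cells was called against Control. Cacng5 (-0.45, SE 0.24) and Pcp4 (-0.40, SE 0.16) of CA2, C1ql2 (-0.47, SE 0.15) and Pdzd2 (0.23, SE 0.11) of the dentate gyrus, and Neurod6 (0.25, SE 0.11) and Bhlhe22 (0.15, SE 0.14) of the shared genes are the D+V values of those with the smallest p over the 3 comparisons. The smallest p of Neurod6 was in D-V (0.30, SE 0.11) and that of Bhlhe22 in S-V (0.43, SE 0.15). Neurod6 stood at 0.29 (SE 0.11) in S-V, and Bhlhe22 at 0.20 (SE 0.14) in D-V. Among markers of other tissues and cells, none of 8 thalamus and habenula, 8 choroid plexus, 8 interneuron, 5 neocortex, 5 striatum, 5 oligodendrocyte or 5 microglia genes was called in the 3 comparisons with Control. In D+V, Aqp4 rose (0.43, SE 0.10, adjusted p = 0.0422), the 1 of 5 astrocyte markers, and Cldn5 fell (-0.58, SE 0.13, adjusted p = 0.0416), the 1 of 5 endothelial markers. Each of these calls was lost under 13 of the 21 alternatives. The thalamus and habenula median was -0.69 in D+V, with Tcf7l2 at -0.93 (SE 0.27, adjusted p = 0.0823) and Synpo2 at -0.64 (SE 0.17, adjusted p = 0.0696). For S-V that median was -0.43 (Tcf7l2 -0.44, Synpo2 -0.47) and for D-V it was -0.81, with Tcf7l2 at -1.15 (SE 0.27) and Synpo2 at -0.78 (SE 0.17), both with an edgeR adjusted p of 0.595.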

How the data were processed

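RNA was measured in 18 mouse hippocampus samples. The labels' protocols describe Trizol extraction, mRNA enrichment on oligo(dT) beads and NEBNext Ultra libraries. The submitters' processing notes name Bowtie2 2.2.8, HISAT2, StringTie 1.3.1 and DESeq2, without their order. No genome build, annotation or strand setting is given in the sources used here. The authors deposited estimated counts per Ensembl gene (7.35% of values were not whole), which were rounded here. Of 22063 genes, 21973 had a symbol in the reference tables and 3732 were at 0 in every library.

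Genes were tested with edgeR 4.0.16 (R 4.3.3; TMM, filterByExpr, quasi-likelihood F test) in 1 fit of 4 group means over all libraries. Benjamini-Hochberg adjustment ran over 14763 genes, which held 99.97% of counts, and genes were called at an adjusted p under 0.05. The biological coefficient of variation was 15.4%. CPM used TMM effective library sizes. Log2 CPM for correlations had a prior count of 2. Intervals around fold changes are the estimate with a normal 95% margin from the SE. For the alternative with GC and length trends removed, splines with 5 degrees of freedom were subtracted from log2 CPM and limma 3.58.1 was fitted. DESeq2 1.42.0, limma voom, other filters and scalings, covariates and left-out libraries were alternatives. The procedure was tested on simulated data. Reads are not independent molecules, so counting errors cover counting only.

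The 8 members and all lists were chosen with earlier results of these data known. Named genes are the 8 members, the 3 closest genes of each, and from each other list the 2 with the smallest unadjusted p over the 3 comparisons with Control. For lists of other tissues and cells only those called, and those of the thalamus, are printed. The choroid plexus limit of 2000 CPM, the limma fit with trends left in and the tests of marker pairs were added after seeing the data.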

Additional observations from a re-analysis of the deposited data

Results flagged for a closer look

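Of 27 sets of 5 libraries tested for a library apart from the rest, 2 held one, and chance gives about 1 in 20. In the D-V group, library 3 had 170 CPM of Fibcd1, with the next library at 192 CPM, a gap of 0.85 of the group's range. In the S-V group, library 4 had 28.8 CPM of Nectin3, with the next at 34.1 CPM, a gap of 0.77 of the range. The limit for 5 libraries is 0.71. These libraries also held 10750 CPM (D-V 3) and 3864 CPM (S-V 4) of choroid plexus markers, and the part of that tissue in either value was not tested. Leaving out each library in turn gave no call for either gene in S-V or D-V against Control.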

How the results depend on the processing

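Of 48 log2 fold changes (8 markers, 6 comparisons), 22 kept their sign under every alternative tried and 26 changed it in at least 1, none of them called by edgeR over all libraries. The causes were not tested. In D+V against Control the 1 marker called (Nectin3) became 0 with no filter on low counts, with only the groups compared, with a replicate block, with GC content and length trends removed, also with the block, with the thalamus and habenula score as a covariate, and with choroid plexus markers at most 2000 CPM. Over all genes, where 134 were called, these settings left 60, 0, 5, 0, 0, 0 and 1 in that order. Leaving out libraries gave 0 to 1 there. Nectin3 kept its sign in D+V against Control in all 21 alternatives, from 0.26 to 0.57. With all rotated groups together, 1 marker was called by DESeq2 and by limma voom, against 0 by edgeR. The median of all genes moved by at most 0.022 under the alternatives other than leaving out single libraries, for which it was not measured.

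With the replicate number as a block, the Nectin3 difference in D+V was 0.475 with an adjusted p of 0.0775, and Bok in D-V against Control turned to 0.014. Replicate numbers did not pair the libraries: deviations from the group means correlated at a mean r of -0.00708 between libraries of the same number (24 pairs, -0.452 to 0.34) and 0.0029 between others (96 pairs), and 3 of 18 libraries were closest to their own number.

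The signs that turned had these values. With GC content and length trends removed they were 0.018 for Bok in S-V, 0.10 for Mpped1 and 0.15 for Bok in D+V, 0.002 for Mpped1 and 0.016 for Bok in D-V, and 0.060 for Pou3f1, 0.024 for Mpped1 and 0.061 for Bok in all rotated groups against Control. They were -0.002 for Bok in D-V against S-V, and -0.002 for Pou3f1, 0.058 for Nectin3 and -0.13 for Bok in D-V against D+V. With a replicate block added they were 0.039 for Bok in S-V, 0.067 for Mpped1 and 0.17 for Bok in D+V, 0.037 for Bok in D-V, and 0.033 for Pou3f1 and 0.082 for Bok in all rotated groups against Control, and those between rotated groups were -0.002 for Bok (D-V against S-V), -0.002 for Pou3f1, 0.058 for Nectin3 and -0.13 for Bok (D-V against D+V). With choroid plexus markers at most 2000 CPM they were 0.053 for Bok and 0.063 for Iyd in S-V, 0.031 for Mpped1 in D+V, 0.015 for Pou3f1 and 0.065 for Mpped1 in D-V against Control, -0.11 for Bok in D-V against S-V, and 0.052 for Wfs1, 0.034 for Mpped1, -0.004 for Bok and 0.078 for Iyd in D-V against D+V. With the thalamus and habenula score they were 0.069 for Bok in D+V, 0.15 for Bok and -0.105 for Cpne4 in D-V, 0.067 for Bok and -0.023 for Cpne4 in all rotated groups against Control, and -0.046 for Fibcd1, -0.13 for Mpped1 and -0.13 for Cpne4 in D-V against S-V. With the choroid plexus score they were 0.008 for Mpped1 in D+V against Control and 0.006 for Cpne4 in D-V against D+V. Mpped1 in D+V against Control was 0.002 with RLE size factors and with DESeq2, 0.004 with only the groups compared and 0.17 with limma voom, which also gave it 0.072 in D-V and 0.070 in all rotated groups.

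Leaving out 1 library at a time gave these ranges for markers whose sign turned. In S-V against Control they were -0.061 to 0.20 for Pou3f1, -0.21 to 0.003 for Mpped1, -0.125 to 0.019 for Bok, -0.31 to 0.035 for Iyd and -0.017 to 0.23 for Cpne4. In D+V against Control they were -0.11 to 0.11 for Mpped1 and -0.075 to 0.069 for Bok. In D-V against Control they were -0.16 to 0.11 for Pou3f1, -0.14 to 0.071 for Mpped1 and -0.070 to 0.086 for Bok. For all rotated groups they were -0.16 to 0.10 for Pou3f1, -0.15 to 0.061 for Mpped1 and -0.086 to 0.058 for Bok. In D-V against S-V, Cpne4 ran from -0.022 to 0.093. In D-V against D+V the ranges were -0.16 to 0.064 for Wfs1, -0.105 to 0.022 for Mpped1, -0.077 to 0.077 for Bok, -0.19 to 0.041 for Iyd and -0.067 to 0.031 for Cpne4. Among signs that held, Wfs1 in S-V ran from -0.355 without Control 1 to -0.041 without Control 3 and Nectin3 in S-V from 0.097 without Control 1 to 0.306.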
